A study of Mus musculus with 17 samples.

Results

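Cortical astrocytes were compared with astrocytes of the ventral division of the medial geniculate nucleus (MGv), the auditory relay nucleus of the thalamus, over all genes in 8 of the 17 RNA-seq libraries of the series. Cortex a to d were set against MGv a to d, 4 libraries a group, with no other library in the fit. Every library came from postnatal day 7 mice of the FVB strain carrying the Gfap::GFP reporter, in which a GFAP promoter drives green fluorescent protein. For each library 4 brains were pooled, and GFP-positive cells were dissociated from slices and isolated by fluorescence-activated cell sorting. The cortical tissue was primary somatosensory cortex according to the study's methods. The groups therefore belong to different sensory systems as well as to different brain regions. Both groups carry the reporter, neither was treated, and the sources used here do not state whether the cortex and MGv pools were cut from the same brains. The remaining 9 libraries were thalamic, 5 of the dorsal lateral geniculate nucleus (dLG) and 4 of the ventral posteromedial nucleus (VPM), and served only to set MGv levels beside those of neighbouring nuclei.

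Astrocytes take up transmitter and potassium around synapses, are joined to one another by connexin channels, and make lipids and secreted proteins on which developing neurons depend. Cortical astrocytes arise from progenitors of the telencephalon, which express Emx and Lhx2 factors, whereas those of the thalamus arise from the diencephalon, where Otx2, Irx, Zic, Gbx2 and Tcf7l2 pattern the tissue. The comparison asks how far astrocytes of the first postnatal week, isolated by the same reporter, carry different transcripts in each region.

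The deposited values are raw counts of reads per gene. Cortex a held 50366363 counts and the other 7 libraries between 18785731 and 21337165, so that 3 reads corresponded to 0.0646 CPM (read counts scaled to a common library size) in cortex a and to between 0.136 and 0.157 CPM in the others. CPM were scaled by TMM factors. Every log2 fold change is MGv minus cortex, given ± SE, with the adjusted p of edgeR's quasi-likelihood test after Benjamini-Hochberg correction over 16326 genes, called below 0.1. In a principal component analysis of the 500 most variable genes, the first component held 69.0% of the variance and placed the cortex libraries between -43.8 and -29.5 and the MGv libraries between 36.9 and 42.1. The library numbers in the labels fall into 2 series: cortex a and b belong to one, and cortex c and d share the other with all MGv libraries. Where a call ended, or a count moved by over 1.5 times, when only cortex c and d were set against MGv, that value stands beside the result as the one within the shared series, which rests on 6 libraries.

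The sorted cells carried astrocyte transcripts in both groups. Of 12 astrocyte markers, 5 were higher in cortex (Slc1a2, Slc1a3, Aldoc, Gja1 and Gjb6) and 1 in MGv (S100b). Calls thus made up 50.0% of these markers, beside 20.8% of all genes tested. Of the 5 cortex calls 3 were kept within the shared series, and S100b was not called there (adjusted p = 0.16). Summed over the 12, levels were 15768, 15246, 14401 and 14721 CPM in cortex a to d and 7828, 9808, 17452 and 9972 CPM in MGv a to d. MGv c stood above the rest, and Gfap alone gave 5561 CPM there. Aqp4, the water channel of astrocyte endfeet, was at 1474 to 1732 CPM in cortex and 883 to 3069 CPM in MGv (log2 fold change 0.25 ± 0.28, adjusted p = 0.59). Aldh1l1, a folate enzyme used as a pan-astrocyte marker, was at 540.1 to 605 and 442 to 841 CPM (log2 fold change 0.04 ± 0.19, adjusted p = 0.91). Neither difference passed the test. Markers of other cell types were read too, though bulk libraries cannot show which cells carried them. Oligodendrocyte lineage markers summed to 7600 to 9233 CPM in cortex and 7010 to 8820 CPM in MGv, led by Olig1. The 10 neuronal markers summed to 1399, 1697, 1380.1 and 1487 CPM in cortex a to d and 2481, 1082, 967 and 2024 CPM in MGv a to d. The summed neuronal markers were thus higher in MGv a and d than in MGv b and c. Microglial (11.6 to 60.4 CPM summed), endothelial (0.390 to 21.05), mural (2.97 to 64.4), leptomeningeal (12.7 to 32.5) and choroid plexus markers (1.36 to 7.94) were low everywhere. Gm26917 and Lars2, genes at high counts that were singled out after their values were seen, were at 405, 461, 468 and 818 and 280.4, 284, 563 and 238 CPM in cortex a to d and 709.7, 1133, 608 and 1891 and 408, 1442, 384 and 652 CPM in MGv a to d (log2 fold change 1.01 ± 0.33, adjusted p = 0.066, and log2 fold change 1.08 ± 0.40, adjusted p = 0.097). Neither gene was called within the shared series (adjusted p = 0.43 and 0.48). Their part in the results was not tested. In bulk libraries, fewer cells of a type and less RNA per cell cannot be told apart.

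Of the 16326 genes, 3403 were called (20.8%): 1773 were higher in MGv (10.9%) and 1630 were higher in cortex (9.98%), against a median log2 fold change of -0.01 over all genes. By more than 2-fold, 866 genes were higher in MGv and 598 in cortex. Every MGv library lay above every cortex library for 1490 genes (9.13% of those tested), of which 1230 were called, and every cortex library lay above every MGv library for 1772 genes (10.9%), of which 1352 were called. Within the shared series the counts were 448 higher in MGv and 606 higher in cortex, and without cortex b they were 1085 and 851. None of the called genes was called in the opposite direction under any of 17 alternatives.

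**Figure D1:**
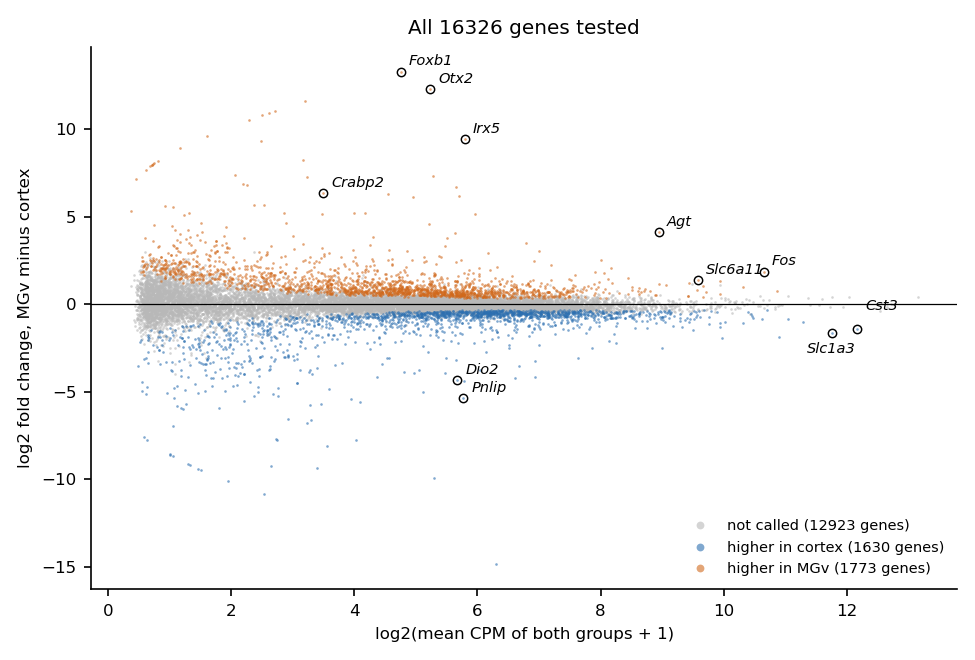
Each point is 1 of the 16326 genes tested, with its mean level in both groups as log2(CPM + 1) on the x axis and its log2 fold change, MGv minus cortex, on the y axis; orange genes were called higher in MGv (1773), blue genes higher in cortex (1630) and grey genes were not called. Otx2, Foxb1 and Irx5 lie at the top and Pnlip and Dio2 among the labelled genes at the bottom; the fitted fold change of Foxb1, which had 0 counts in cortex, depends on the prior count of the fit.

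The leading genes in each direction were picked only among called genes whose groups did not overlap in CPM. That their groups are separate is therefore set by the choice and is not a further result. The genes with the smallest p-values among those higher in MGv were led by patterning factors that were all but absent from cortical astrocytes. Otx2, a homeobox factor of the embryonic midbrain and diencephalon (chromosome 14, 48657677 to 48673819 in GRCm38), was at 71.96, 70.4, 84.2 and 64.8 CPM in MGv a to d and at 0, 0, 0 and 0.0482 CPM in cortex a to d. The cortex total was 1 read against 6017 in MGv, a ratio of CPM of 7827 with an exact 95% counting interval of 1404 to 309210 (adjusted p = 5.6e-09). Foxb1, a forkhead factor of the diencephalon (chromosome 9, 69757710 to 69760940), had no read in any cortex library and 45.7, 67.2, 47.4 and 47.8 CPM in MGv, at least 411-fold higher when 3 counts per library are taken as the floor. For both genes the groups were separate in every library, as the choice of genes required.

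Irx5 and Irx2 belong to the Iroquois homeobox family, which sets boundaries within the developing neural tube. Irx5 (chromosome 8, 92357625 to 92376286) was at 0.215, 0, 0.199 and 0.145 CPM in cortex and 107, 138, 99.9 and 91.1 CPM in MGv (log2 fold change 9.41 ± 0.35, adjusted p = 2.8e-08). Irx2 (chromosome 13, 72628820 to 72634198) was at 1.55, 0.493, 0.447 and 0.965 CPM in cortex and 94.3, 101, 96.7 and 99.4 CPM in MGv (log2 fold change 6.70 ± 0.32, adjusted p = 2.3e-07). MGv levels of Irx2 were close together, and no library of one group came near the other. Irx1 and Irx3 were also higher in MGv (5.19 ± 0.38 and 7.33 ± 0.55 on the log2 scale, adjusted p = 4.8e-06 and 5.8e-06), with cortex libraries at most at 1.45 CPM.

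Secreted and surface proteins made up the rest of this set. Agt, the angiotensinogen precursor that astrocytes secrete in the brain (chromosome 8, 124556534 to 124569706), was the most abundant: it was at 53.3, 60.3, 49.6 and 51.99 CPM in cortex and 592, 1227, 1225 and 672 CPM in MGv (log2 fold change 4.11 ± 0.26, adjusted p = 1.5e-06). C1ql2, a C1q-like protein of the synaptic cleft (chromosome 1, 120340582 to 120343174), was at 5.82, 5.32, 6.36 and 7.09 CPM in cortex and 78.97, 108, 66.7 and 78.7 CPM in MGv (log2 fold change 3.76 ± 0.19, adjusted p = 2.4e-07). Nid1, a basement membrane protein (chromosome 13, 13437551 to 13512269), was at 0.452, 1.04, 0.944 and 1.11 CPM in cortex and 40.8, 56.9, 81.8 and 58.4 CPM in MGv (log2 fold change 6.13 ± 0.33, adjusted p = 3.4e-07). For these 3 genes every MGv library stood far above every cortex library. Ildr2, an immunoglobulin-like membrane protein (chromosome 1, 166254139 to 166316823), differed less, at 29.7 to 41.8 CPM in cortex and 170.1 to 228 CPM in MGv (log2 fold change 2.46 ± 0.16, adjusted p = 1.7e-06). Of its exonic sequence 11.0% lies opposite another gene, and the counting is not stated to use strand.

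Among the genes of smallest p-value higher in cortex, Mef2c, a MADS box factor abundant in cortical neurons (chromosome 13, 83504034 to 83667080), was at 176, 241, 156 and 176 CPM in cortex and 17.2, 13.5, 14.7 and 17.9 CPM in MGv (log2 fold change -3.56 ± 0.18, adjusted p = 2.3e-07). The lowest cortex library lay far above the highest MGv library.

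A further 5 genes of this set act outside transcription. Chrdl1, a secreted BMP antagonist through which cortical astrocytes promote synapse maturation (chromosome X, 143285674 to 143394262), was at 232, 229, 189.6 and 231 CPM in cortex and 24.9, 18.3, 23.8 and 27.3 CPM in MGv (log2 fold change -3.22 ± 0.16, adjusted p = 2.3e-07). Pnlip, pancreatic lipase (chromosome 19, 58652498 to 58681788), was at 130.4, 101, 97.9 and 88.4 CPM in cortex and 2.73, 2.25, 1.72 and 3.40 CPM in MGv (log2 fold change -5.37 ± 0.23, adjusted p = 9.4e-08). Dio2, the deiodinase by which astrocytes activate thyroid hormone (chromosome 12, 90724552 to 90738438), was at 118, 81.3, 109 and 73.4 CPM in cortex and 2.87, 4.07, 5.55 and 6.43 CPM in MGv (log2 fold change -4.33 ± 0.27, adjusted p = 1.4e-06). All 4 cortex libraries lay above all 4 MGv libraries for each of them, as the choice of genes required. Kcnk1, a background potassium channel (chromosome 8, 125995170 to 126030685), was at 202 to 220.3 CPM against 35.5 to 46.04 CPM (-2.35 ± 0.14). Mpped1 (chromosome 15, 83779467 to 83858494) was at 68.6 to 95.6 CPM against 3.92 to 7.02 CPM (-3.92 ± 0.23).

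**Figure D2:**
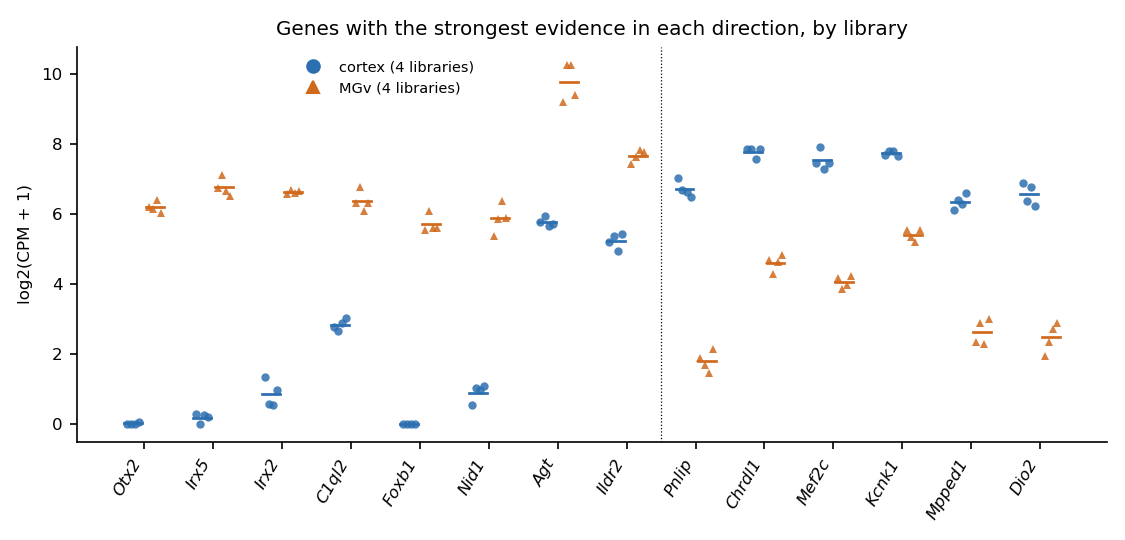
Levels by library, as log2(CPM + 1), of 8 genes higher in MGv and 6 higher in cortex, taken from those of smallest p-value over 2-fold, not overlapping and at 5 CPM or more; blue circles are the 4 cortex libraries, orange triangles the 4 MGv libraries, and short lines the group means. The groups are separate for all 14 genes by the way they were chosen, and Foxb1 in cortex sits at 0.

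The list of thalamic and diencephalic transcription factors moved almost as a whole. Of 24 members tested, 21 were called higher in MGv (background 10.9%), 2 were higher in cortex (Zic2 and Zic5), and only Lef1 was not called. The median log2 fold change was 5.60, or 5.35 with the 4 members at 0 in cortex held at their lower bound, against -0.01 over all genes. Several of these factors were named by the study from comparisons that include these libraries. The list itself was chosen with earlier results of these data known. The count of calls is therefore not independent evidence of direction. Tcf7l2, a Wnt effector of the thalamus, was at 80.6, 76.8, 71.2 and 76.7 CPM in cortex and 663, 285, 278 and 518 CPM in MGv (log2 fold change 2.51 ± 0.26, adjusted p = 8.7e-05). Gbx2, a homeobox factor of thalamic progenitors and neurons, was at 0.28, 0, 0 and 0 CPM in cortex and 18.5, 7.36, 11.1 and 30.1 CPM in MGv (log2 fold change 7.23 ± 0.78, adjusted p = 0.00011). An annotated transcript on the opposite strand covers 43.5% of its exonic sequence.

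Some of these factors were highest in the MGv libraries with the highest summed neuronal markers and some were not. Tcf7l2, Gbx2, Lhx9 (11.5, 3.34, 5.55 and 20.7 CPM), Zic1 (13.6, 2.87, 4.50 and 9.06 CPM), Foxp2 (88.5, 28.4, 26.6 and 62.3 CPM) and Lef1 (39.4, 5.95, 6.55 and 18.9 CPM) were each highest in MGv a and d, the libraries whose summed neuronal markers were 2481 and 2024 CPM against 1082 and 967 CPM in MGv b and c. By contrast, Otx2, Irx2, Foxb1 and Nr2f2 (94.2, 119, 98.7 and 92.3 CPM), a nuclear receptor of the diencephalon, were not highest in that pair. Pax3, a paired box factor, was lowest in MGv a (3.36, 21.6, 23.3 and 17.6 CPM). Slc17a6, the vesicular glutamate transporter of thalamic relay neurons, was at 114, 22.98, 30.3 and 115 CPM in MGv and 6.31 to 16.3 CPM in cortex. The part of neuronal RNA in the differences was not tested.

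Smaller and opposite differences were found within the list as well. Rora, a nuclear receptor of relay neurons, was at 66.7 to 116 CPM in cortex and 98.2 to 240.0 CPM in MGv (log2 fold change 0.80 ± 0.26, adjusted p = 0.061). The call was lost within the shared series (adjusted p = 0.12) and without any of cortex b, c and d or MGv a. Zic5 was at 16.98, 15.5, 18.5 and 16.3 CPM in cortex and 1.66, 2.87, 7.94 and 7.83 CPM in MGv (log2 fold change -1.73 ± 0.41, adjusted p = 0.017), opposite in direction to Zic1 (6.83 ± 0.86). Zic2 was low in both groups, at 1.35 to 3.10 CPM in cortex and 0 to 0.526 CPM in MGv (log2 fold change -3.24 ± 0.80, adjusted p = 0.021). Neither Zic2 nor Zic5 was called within the shared series (adjusted p = 0.18 and 0.12). Lef1 did not pass the test (log2 fold change 0.53 ± 0.48, adjusted p = 0.51), and its sign turned without MGv a (-0.23).

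The list of cortical and telencephalic factors went the other way. Of 28 tested, 18 were called higher in cortex (background 9.98%) and 1 in MGv, with a median log2 fold change of -2.86. This list too was chosen with earlier results of these data known, so its count is not independent evidence of direction. Lhx2, a LIM homeobox factor of cortical progenitors, was at 236, 225, 246 and 219 CPM in cortex and 16.95, 8.62, 5.02 and 20.3 CPM in MGv (log2 fold change -4.18 ± 0.36, adjusted p = 1.9e-05). Nr2e1, a nuclear receptor of neural stem cells, was at 123 to 149 CPM against 33.6 to 49.8 CPM (log2 fold change -1.77 ± 0.15, adjusted p = 1.6e-05). Emx1, Emx2 and Meis2 were also higher in cortex (-7.73 ± 0.50, -2.15 ± 0.27 and -2.11 ± 0.19, adjusted p = 1.7e-06, 0.00037 and 2.5e-05). The groups did not overlap for any of these 5 genes.

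Factors best known from cortical neurons were part of the same list. Fezf2, a determinant of deep layer neurons, was at 9.80, 17.1, 32.8 and 16.8 CPM in cortex and gave 2 reads in all MGv libraries together, a ratio of 696 with an exact 95% counting interval of 192 to 5749 (adjusted p = 4.8e-06). Tbr1, a T-box factor of corticothalamic neurons, was at 16.5, 10.6, 17.04 and 19.97 CPM in cortex and 1.46, 0.522, 1.10 and 1.27 CPM in MGv (log2 fold change -3.87 ± 0.34, adjusted p = 2e-05). Neurod6, a bHLH factor of cortical excitatory neurons, was at 28.5 to 35.7 CPM against 0 to 1.68 CPM (-5.59 ± 0.63). Beside them, Slc17a7, the vesicular transporter of cortical glutamatergic neurons, was at 22.6 to 50.7 CPM in cortex and 1.10 to 4.12 CPM in MGv. Rbfox3, a neuronal nuclear protein, was at 33.2 to 46.1 and 7.94 to 21.2 CPM (log2 fold change -1.26 ± 0.28, adjusted p = 0.011; 0.11 within the shared series). Of the 10 neuronal markers, 1 (Rbfox3) was called higher in cortex, 2 (Nefl and Nefm) were called higher in MGv and 7 were not called. Of 5 markers of cortical glutamatergic neurons 4 were called higher in cortex (background 9.98%). The 5 markers summed to 226 to 272 CPM in cortex and 19.1 to 59.9 CPM in MGv. Of 5 markers of thalamic glutamatergic neurons 4 were called higher in MGv (background 10.9%) and 1, Prkcd, in cortex. How much of their difference came from neuronal RNA in the sorted cells was not tested. Pax6, Cux1, Otx1, Sox5 and 5 further members were not called. Nr2f1 was the member higher in MGv (log2 fold change 1.07 ± 0.33, adjusted p = 0.051), a call that was lost within the shared series (adjusted p = 0.31).

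**Figure D3:**
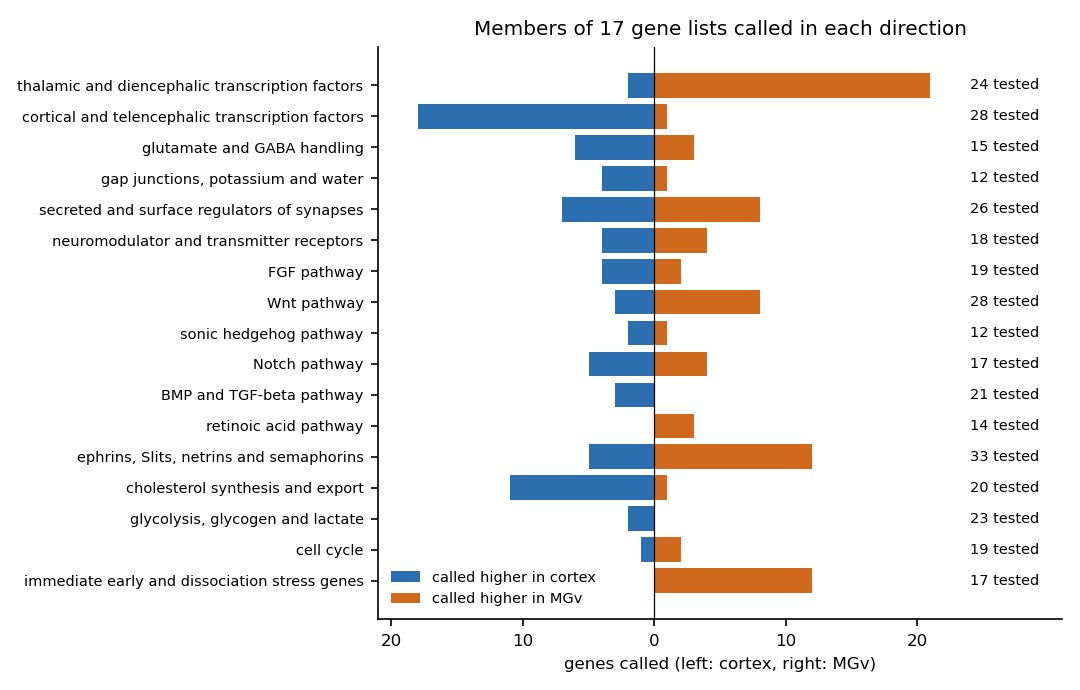
Bars count the members of each of 17 gene lists called higher in cortex (left, blue) or higher in MGv (right, orange), with the number tested printed at the right. Of all genes tested, 9.98% were called higher in cortex and 10.9% higher in MGv. The lists were chosen with earlier results of these data known. The longest bars are those of the thalamic factors (21 of 24 in MGv) and cortical factors (18 of 28 in cortex), followed by the immediate early genes (12 of 17) and guidance genes (12 of 33) in MGv and by cholesterol synthesis (11 of 20) in cortex.

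Genes that clear glutamate were lower in MGv astrocytes, while a GABA transporter was higher. Of 15 genes of glutamate and GABA handling, 6 were called higher in cortex and 3 higher in MGv (background 9.98% and 10.9%). The median log2 fold change was -0.34, and the counts were 4 and 1 within the shared series. Slc1a3, the GLAST glutamate transporter, was at 5232, 5571, 4515 and 5613 CPM in cortex and 1552, 1681, 2018 and 1516 CPM in MGv (log2 fold change -1.63 ± 0.14, adjusted p = 2.2e-05). Slc1a2, the GLT-1 transporter, was at 961, 794, 1086 and 621 CPM in cortex and 485, 626, 328 and 386 CPM in MGv (log2 fold change -0.92 ± 0.22, adjusted p = 0.017; 0.14 within the shared series), the groups overlapping by cortex d and MGv b. Glul, glutamine synthetase, was at 352, 294, 341 and 322.4 CPM in cortex and 87.8, 192, 61.3 and 71.7 CPM in MGv (log2 fold change -1.66 ± 0.30, adjusted p = 0.0039). Slc1a3 and Glul kept the groups apart.

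Slc38a3, which exports glutamine, was also higher in cortex (744 to 911 against 302 to 431 CPM; log2 fold change -1.26 ± 0.15, adjusted p = 0.00023). So was Maob, monoamine oxidase B (24.4 to 36.02 against 8.04 to 15.4 CPM; log2 fold change -1.39 ± 0.22, adjusted p = 0.0016). In the other direction, Slc6a11, the GAT-3 GABA transporter, was at 425, 469.7, 442 and 357 CPM in cortex and 748, 1717, 882 and 1074 CPM in MGv (log2 fold change 1.38 ± 0.23, adjusted p = 0.0023). Aldh5a1, which degrades GABA-derived succinic semialdehyde, and Slc38a1, an amino acid transporter, were higher in MGv by 0.79 ± 0.19 and 0.85 ± 0.19 (adjusted p = 0.02 and 0.014), but not within the shared series (adjusted p = 0.17 and 0.14). Another gene overlaps 17.7% of Aldh5a1 exonic sequence.

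Among 12 genes for gap junctions, potassium and water, 4 were higher in cortex and 1 in MGv (background 9.98% and 10.9%, median -0.21). The counts were 2 and 0 within the shared series. Gjb6, connexin 30, was at 148, 176, 147 and 131 CPM in cortex and 36.9, 29.4, 26.1 and 25.1 CPM in MGv (log2 fold change -2.36 ± 0.16, adjusted p = 3.1e-06). Gja1, connexin 43, was at 1662, 1855, 1475 and 1655 CPM in cortex and 1020.1, 826, 1543 and 1126 CPM in MGv (log2 fold change -0.56 ± 0.18, adjusted p = 0.062; 0.37 within the shared series). The connexin 30 groups were far apart, and those of connexin 43 overlapped through MGv c. Kcnj10, the Kir4.1 channel that buffers potassium, was at 483 to 538 CPM in cortex and 228 to 273 CPM in MGv (log2 fold change -0.99 ± 0.12, adjusted p = 0.00029). Its partner Kcnj16 was at 108 to 146 and 50.1 to 81.4 CPM (log2 fold change -0.89 ± 0.17, adjusted p = 0.0055; 0.12 within the shared series). Slc4a4, a bicarbonate cotransporter, was higher in MGv (log2 fold change 0.47 ± 0.12, adjusted p = 0.027; 0.23 within the shared series).

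Secreted and surface regulators of synapses divided between the groups. Of 26 tested, 8 were higher in MGv and 7 in cortex (background 10.9% and 9.98%, median 0.12). Of the cortical calls, 4 were left within the shared series. On the MGv side stood Il33, a cytokine through which astrocytes direct synapse removal by microglia, at 21.6, 13.1, 14.3 and 16.6 CPM in cortex and 127, 90.5, 162 and 124 CPM in MGv (log2 fold change 2.93 ± 0.22, adjusted p = 4.8e-06). Thbs1, thrombospondin 1, which induces synapse formation, was at 4.27, 5.13, 3.53 and 4.97 CPM in cortex and 21.7, 16.2, 15.2 and 18.2 CPM in MGv (log2 fold change 2.00 ± 0.22, adjusted p = 0.00013). Sparc, which opposes synapse formation, was at 456 to 651 CPM in cortex and 813 to 1119.8 CPM in MGv (log2 fold change 0.79 ± 0.16, adjusted p = 0.0072). In none of these 3 genes did the groups overlap. Cbln1, Cbln2 and Cbln4, cerebellin synaptic organizers that neurons also make, were higher by 1.73 ± 0.45, 2.47 ± 0.39 and 3.88 ± 0.73 (adjusted p = 0.026, 0.0016 and 0.0047; 0.15 within the shared series for Cbln1), and Cbln2 and Cbln4 were highest in MGv d.

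On the cortical side, besides Chrdl1, stood the glypican Gpc4 (63.05 to 80.6 against 22.2 to 37.7 CPM; log2 fold change -1.28 ± 0.19, adjusted p = 0.00099), which recruits glutamate receptors to young synapses. Gpc5 was higher there too (110.2 to 159 against 40.9 to 72.8 CPM; log2 fold change -1.29 ± 0.19, adjusted p = 0.001). Mertk, a receptor for engulfment of synapses, was at 62.4, 108, 83.96 and 83.7 CPM in cortex and 45.1, 49.7, 65.4 and 43.1 CPM in MGv (log2 fold change -0.73 ± 0.19, adjusted p = 0.024; 0.11 within the shared series), with MGv c overlapping cortex a. The thrombospondins Thbs2 and Thbs4 were called higher in cortex, opposite to Thbs1 (log2 fold changes -1.11 and -1.71, adjusted p = 0.057 and 0.048). Thbs2 was not called within the shared series (adjusted p = 0.17), and each of these calls was lost without certain single libraries. Sparcl1, or hevin, was abundant in both groups (6328 to 7085 and 5226 to 8185 CPM) and was not called (log2 fold change -0.15 ± 0.16, adjusted p = 0.58). Within the C1q-like family, C1ql2 was higher in MGv and C1ql3 in cortex (log2 fold change -1.22 ± 0.25, adjusted p = 0.0072; 0.11 within the shared series).

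Of 18 transmitter and neuromodulator receptors, 4 were higher in each group (background 10.9% in MGv and 9.98% in cortex, median 0.16). Within the shared series 1 of the MGv calls (Gabbr1) and 2 of the cortex calls (Gabrb1 and Gria2) were kept. Both subunits of the GABA-B receptor were higher in MGv. Gabbr1 was at 257 to 403 CPM in cortex and 517 to 608 CPM in MGv (log2 fold change 0.73 ± 0.15, adjusted p = 0.0092). Gabbr2 was at 108 to 149 and 194 to 303 CPM (log2 fold change 0.81 ± 0.17, adjusted p = 0.0093; 0.17 within the shared series). Adra2a, an alpha-2 adrenergic receptor, was at 18.4 to 27.8 and 34.4 to 40.9 CPM (log2 fold change 0.83 ± 0.17, adjusted p = 0.0082; 0.15 within the shared series). In cortex, Gria2, an AMPA receptor subunit, was higher (629.9 to 838 against 258 to 453 CPM; log2 fold change -1.03 ± 0.18, adjusted p = 0.0026). So were Gabrb1, a GABA-A subunit (log2 fold change -1.13 ± 0.17, adjusted p = 0.0011), and Ednrb, the endothelin B receptor (log2 fold change -0.86 ± 0.18, adjusted p = 0.0082; 0.15 within the shared series).

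Wnt genes were called more often in MGv than in cortex. Of 28 Wnt genes, 8 were higher in MGv and 3 in cortex (background 10.9% and 9.98%, median 0.30). Wls, which carries Wnt ligands to the cell surface, was at 45.6, 59.8, 46.01 and 55.7 CPM in cortex and 221, 192, 314 and 231 CPM in MGv (log2 fold change 2.21 ± 0.18, adjusted p = 9.9e-06). The ligands Wnt3 and Wnt5a and the receptors Ror2 and Fzd9 were higher in MGv by 2.09 ± 0.34, 1.24 ± 0.22, 2.17 ± 0.23 and 1.20 ± 0.16 (adjusted p = 0.0021, 0.0039, 0.0001 and 0.00053). The 3 members higher in cortex are secreted Wnt inhibitors or relatives of them. Dkk3 was at 384, 400.0, 410.2 and 384 CPM in cortex and 50.1, 62.7, 103 and 56.8 CPM in MGv (log2 fold change -2.53 ± 0.21, adjusted p = 1.4e-05). Sfrp1 was at 130.1 to 168 and 34.3 to 50.6 CPM (log2 fold change -1.94 ± 0.17, adjusted p = 2e-05) and Sfrp5 at 12.99 to 21.3 and 0.341 to 1.93 CPM (log2 fold change -3.98 ± 0.42, adjusted p = 9.4e-05). Sfrp2, of the same family, went the other way (1.03 ± 0.16), and the Wnt target Axin2 was not called (0.46 ± 0.23, adjusted p = 0.2).

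Retinoic acid genes gave 3 calls of 14, all in MGv (median 0.23), a share of 21.4% beside 20.8% of all genes tested. Crabp2, which carries retinoic acid to its nuclear receptors, was at 0.215, 0.148, 0.348 and 0.289 CPM in cortex and 26.8, 16.04, 8.04 and 30.7 CPM in MGv (log2 fold change 6.35 ± 0.49, adjusted p = 7.5e-06), with the groups far apart. Rxrg, a retinoid X receptor, was at 36.5, 32.8, 39.2 and 34.96 CPM in cortex and 37.2, 85.7, 152 and 97.3 CPM in MGv (log2 fold change 1.38 ± 0.31, adjusted p = 0.014), with MGv a within the cortex range. It was not called within the shared series (adjusted p = 0.17), where Crabp2 was the 1 call of the 3 that was kept.

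Notch genes were called in both directions, 4 in MGv and 5 in cortex of 17 tested (background 10.9% and 9.98%, median 0.10). Hes5, the Notch effector, was at 507, 249, 512 and 386 CPM in cortex and 784, 1629, 724 and 743 CPM in MGv (log2 fold change 1.23 ± 0.29, adjusted p = 0.017). The receptors Notch1 and Notch3 were higher in MGv by 0.79 ± 0.22 and 1.23 ± 0.28 (adjusted p = 0.032 and 0.014). None of the 3 was called within the shared series (adjusted p = 0.14, 0.31 and 0.19), where none of the 4 MGv calls and 2 of the 5 cortex calls were kept, and 31.8% of Hes5 exonic sequence lies opposite another gene. Lfng and Mfng, Fringe enzymes that modify Notch receptors, were higher in cortex (log2 fold changes -1.09 ± 0.23 and -2.26 ± 0.43, adjusted p = 0.0082 and 0.0049), Lfng not within the shared series (adjusted p = 0.12). So were Nrarp (-0.75 ± 0.13, adjusted p = 0.003), Hey1 (-0.55, adjusted p = 0.068) and Heyl (-0.65, adjusted p = 0.054). Within the shared series Nrarp was kept (adjusted p = 0.034), but Hey1 and Heyl were not (adjusted p = 0.36 and 0.28). Of Nrarp exonic sequence 79.4% lies opposite another gene.

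Calls among FGF, hedgehog and BMP genes made up 31.6%, 25.0% and 14.3% of the members tested, beside 20.8% of all genes. Of 19 FGF genes 2 were higher in MGv and 4 in cortex (median -0.01), and 1 and 2 of these calls were kept within the shared series. Fgfbp3, an FGF carrier, was at 276, 259, 284 and 218 CPM in cortex and 40.4, 110.0, 129.9 and 97.3 CPM in MGv (log2 fold change -1.46 ± 0.28, adjusted p = 0.0053), and the receptor Fgfr2 was also higher in cortex (-0.94 ± 0.20, adjusted p = 0.0083). Of 12 hedgehog genes, Ptch1, the receptor and target of the pathway, was higher in MGv (1.08 ± 0.22, adjusted p = 0.0068; 0.12 within the shared series). The co-receptors Gas1 and Cdon were higher in cortex (-0.58 ± 0.14 and -1.33 ± 0.44, adjusted p = 0.016 and 0.064), Cdon losing its call without any of 6 libraries and within the shared series. Of 21 BMP and TGF-beta genes, 3 were higher in cortex and none in MGv. Bmp4 was at 62.4, 59.4, 57.5 and 79.2 CPM in cortex and 23.1, 14.7, 16.9 and 31.02 CPM in MGv (log2 fold change -1.59 ± 0.23, adjusted p = 0.00082). Tgfbr2 differed by -1.28 ± 0.33 (adjusted p = 0.026), and Bmp2 by -0.67 ± 0.24 (adjusted p = 0.085), a call lost within the shared series (adjusted p = 0.56) and without any of 6 single libraries. The 4 Id genes, targets of BMP signals, were not called.

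Guidance genes were called in both directions. Of 33 ephrins, Slits, netrins, semaphorins and their receptors, 12 were higher in MGv and 5 in cortex (background 10.9% and 9.98%, median 0.21). Within the shared series 5 of the MGv calls (Robo1, Ntn1, Ephb2, Nrp1 and Plxna1) and all 5 cortex calls were kept. Robo1, a Slit receptor, was at 30.4, 25.8, 34.6 and 26.9 CPM in cortex and 123, 142, 125 and 123 CPM in MGv (log2 fold change 2.12 ± 0.14, adjusted p = 2.2e-06). Ntn1, netrin 1, was at 20.3, 26.7, 22.9 and 26.2 CPM in cortex and 57.4, 130.0, 62.4 and 85.7 CPM in MGv (log2 fold change 1.80 ± 0.24, adjusted p = 0.00054). Ephb2, an ephrin receptor, was at 12.5 to 20.4 and 41.7 to 63.6 CPM (log2 fold change 1.69 ± 0.20, adjusted p = 0.00024). Neuropilins and plexins, which together receive semaphorins, stood on the same side. Nrp1, Nrp2, Plxna1 and Plxnb1 were higher in MGv by 1.32 ± 0.20, 1.85 ± 0.39, 0.98 ± 0.18 and 1.06 ± 0.22 (adjusted p = 0.0011, 0.0095, 0.0049 and 0.0075), though Nrp2 and Plxnb1 not within the shared series (adjusted p = 0.12 and 0.15). Higher in cortex were Epha4 (log2 fold change -1.08 ± 0.16, adjusted p = 0.0013), the netrin Ntn4 (log2 fold change -1.17 ± 0.18, adjusted p = 0.0013) and the ligands Sema3d and Sema3a (-1.15 ± 0.18 and -4.24 ± 0.81, adjusted p = 0.0018 and 0.0055).

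Enzymes of cholesterol synthesis, which astrocytes use to supply neurons with lipid, were higher in cortex, each by about 2-fold or less. Of 20 genes tested, 11 were higher in cortex and 1, the exporter Abca1, higher in MGv (background 9.98% and 10.9%, median -0.50). Msmo1, a sterol methyl oxidase, was at 1328, 1604, 1387 and 1233 CPM in cortex and 747, 642, 745 and 612 CPM in MGv (log2 fold change -1.02 ± 0.14, adjusted p = 0.00057). Sqle, squalene epoxidase, was at 914, 971, 873 and 992 CPM in cortex and 571, 374, 594 and 555 CPM in MGv (log2 fold change -0.84 ± 0.16, adjusted p = 0.0047). Dhcr7, which completes the pathway, was at 558 to 652 and 350.2 to 386 CPM (log2 fold change -0.73 ± 0.12, adjusted p = 0.0022). These 3 genes did not overlap between the groups. Idi1, an isomerase of the pathway, differed by -0.999 ± 0.30 (adjusted p = 0.049; 0.37 within the shared series). Apoe, the main lipid carrier, was at 5984 to 9437 and 7416 to 16255 CPM and was not called (log2 fold change 0.38 ± 0.24, adjusted p = 0.32). Abca1 was at 162, 140.5, 173 and 99.97 CPM in cortex and 228, 395, 267 and 234 CPM in MGv (log2 fold change 0.96 ± 0.21, adjusted p = 0.012; 0.11 within the shared series). The cortical count fell to 7 without cortex b and to 3 within the shared series.

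The upstream sequences of 2 of these genes are shown because the members share a short motif. The stretches are the 250 bases before the RefSeq transcription start, 5′ to 3′ on the strand of the gene in GRCm38.p6, Msmo1 from chr8:64733579-64733828 on the minus strand and Idi1 from chr13:8885356-8885605 on the plus strand, with CCAAT or its reverse complement ATTGG in capitals.
Msmo1: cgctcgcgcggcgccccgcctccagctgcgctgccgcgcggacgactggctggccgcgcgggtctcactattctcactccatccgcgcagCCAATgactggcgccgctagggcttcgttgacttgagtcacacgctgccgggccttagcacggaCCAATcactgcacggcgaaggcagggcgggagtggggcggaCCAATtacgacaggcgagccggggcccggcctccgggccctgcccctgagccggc
Idi1: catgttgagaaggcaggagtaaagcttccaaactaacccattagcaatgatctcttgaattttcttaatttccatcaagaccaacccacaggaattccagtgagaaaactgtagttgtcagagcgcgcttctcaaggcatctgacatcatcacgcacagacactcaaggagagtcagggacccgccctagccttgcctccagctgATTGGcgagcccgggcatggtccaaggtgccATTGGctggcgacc
The Msmo1 stretch holds 3 matches and the Idi1 stretch 2. A match on either strand was present in 11 of the 13 list members with a RefSeq promoter, against 37.5% of 27025 gene symbols; Apoe and Abca1 had none. The longer motif TCACNCCAC was found in 1 of the 13, against 1.22% of symbols. These counts describe letters in the window and were not tested.

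Calls among glycolysis and cell cycle genes made up 8.70% and 15.8% of the members tested, beside 20.8% of all genes. Of 23 genes of glycolysis, glycogen and lactate, 2 were higher in cortex. Aldoc, the aldolase of astrocytes, was at 1924, 1539.8, 1885 and 1543 CPM in cortex and 702, 991, 839 and 721 CPM in MGv (log2 fold change -1.08 ± 0.15, adjusted p = 0.00081). Ldha, lactate dehydrogenase A, differed less (log2 fold change -0.64 ± 0.13, adjusted p = 0.0067; 0.13 within the shared series). Of 19 cell cycle genes, Mki67 and Cenpf were higher in MGv by 0.51 ± 0.18 and 0.47 ± 0.16 (adjusted p = 0.078 and 0.074) and Ccnd2 higher in cortex (-0.57 ± 0.17, adjusted p = 0.049). All 3 cell cycle calls were lost within the shared series (adjusted p = 0.22, 0.12 and 0.32) and on leaving out any of 4 or 5 single libraries.

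Immediate early genes, which cells switch on within minutes of stimulation or dissociation, were higher in MGv. Of 17 tested, 12 were higher in MGv and none in cortex (background 10.9% and 9.98%, median log2 fold change 1.34). Summed over the list, levels were 5220.2, 1264, 2172 and 1586 CPM in cortex a to d and 6154, 6189, 8044 and 6275 CPM in MGv a to d. Cortex a came close to the MGv libraries while the other cortex libraries stayed well below them. Fos, the prototype of the class, was at 1562, 199.6, 648 and 362 CPM in cortex and 2262, 2588, 2879 and 2312 CPM in MGv (log2 fold change 1.86 ± 0.48, adjusted p = 0.024). Junb, its partner in the AP-1 factor, was at 219.8, 38.00, 108 and 70.4 CPM in cortex and 346, 464, 625 and 418 CPM in MGv (log2 fold change 2.08 ± 0.42, adjusted p = 0.0074). Zfp36, an RNA-binding protein that destabilizes messages, was at 33.6, 6.41, 12.9 and 7.76 CPM in cortex and 68.9, 62.8, 137 and 88.02 CPM in MGv (log2 fold change 2.54 ± 0.47, adjusted p = 0.0042). All 3 genes were without overlap, and cortex a was the highest cortex library in each.

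Ier2 (log2 fold change 1.79 ± 0.33, adjusted p = 0.0044), Btg2 (log2 fold change 1.83 ± 0.43, adjusted p = 0.017) and Atf3 (log2 fold change 2.70 ± 0.67, adjusted p = 0.02) were higher in MGv as well. Egr1 was not called (302 to 1452 and 896 to 1842 CPM; log2 fold change 1.09 ± 0.44, adjusted p = 0.12). Nor was Dusp1, a phosphatase of MAP kinases, which was highest in cortex a (526, 114, 198 and 136 CPM in cortex, 209, 194, 205 and 179 CPM in MGv). The heat shock genes Hspa1a, Hspa1b and Hsp90aa1, which respond to protein stress, were not called (0.46 ± 0.51, -0.23 ± 0.31 and 0.31 ± 0.16). The count was 13 without cortex a and 11 within the shared series. Whether dissociation, sorting or the state of the tissue had a part in it was not tested.

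**Figure D4:**
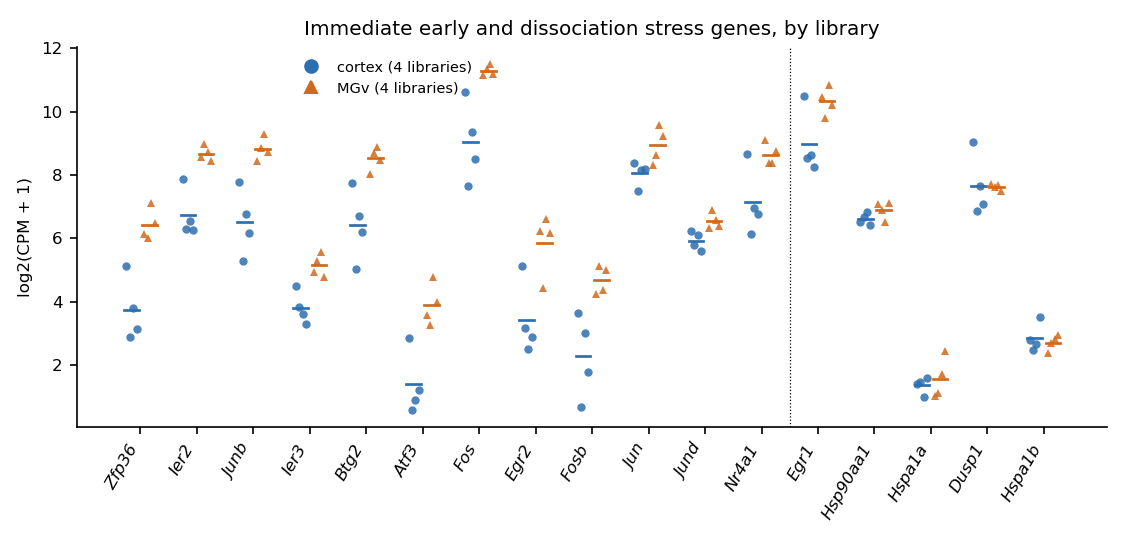
Levels by library, as log2(CPM + 1), of 17 immediate early and dissociation stress genes, ordered by adjusted p; blue circles are cortex libraries, orange triangles MGv libraries and short lines group means. The 12 genes left of the dotted line were called higher in MGv; the highest cortex point of Fos, Junb and Zfp36 is cortex a.

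The upstream stretches of Fos and Junb are shown with TGACG or its reverse complement CGTCA, the core of the cyclic AMP response element, in capitals. They are again the 250 bases before the RefSeq start in GRCm38.p6, 5′ to 3′ on the gene's strand, Fos from chr12:85473640-85473889 on the plus strand and Junb from chr8:84978749-84978998 on the minus strand.
Fos: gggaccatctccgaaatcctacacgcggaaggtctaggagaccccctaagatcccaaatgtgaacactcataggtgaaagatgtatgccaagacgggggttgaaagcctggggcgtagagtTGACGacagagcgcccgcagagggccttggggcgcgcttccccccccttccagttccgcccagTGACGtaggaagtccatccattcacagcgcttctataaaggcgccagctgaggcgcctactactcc
Junb: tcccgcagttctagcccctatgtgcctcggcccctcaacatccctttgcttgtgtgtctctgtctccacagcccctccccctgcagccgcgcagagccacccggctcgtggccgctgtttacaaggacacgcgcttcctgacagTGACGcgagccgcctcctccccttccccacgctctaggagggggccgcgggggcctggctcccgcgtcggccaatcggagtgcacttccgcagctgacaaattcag
Fos holds 2 matches and Junb 1. Of the 14 list members with a RefSeq promoter, 8 held a match, against 19.8% of 27025 symbols: Fos, Fosb, Junb, Egr2, Atf3, Nr4a1, Dusp1 and Btg2. Dusp1 and Btg2 also held the full palindrome TGACGTCA, found in 1.77% of symbols, and only 1 of these 2 was called. Zfp36 and Jun, both called, held no match in this window. The call of Jun was lost within the shared series (adjusted p = 0.24) and without cortex b.

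Of the genes of highest level that differed by more than 2-fold, those higher in MGv were Fos, Nnat, Slc6a11 and Hes5, and those higher in cortex Cst3, Slc1a3, Gpm6a and Tspan7. Nnat, an imprinted membrane proteolipid, was at 699.6, 610.0, 389 and 566 CPM in cortex and 1264, 1594, 1286 and 1442 CPM in MGv (log2 fold change 1.303 ± 0.18, adjusted p = 0.00063). Tspan7, a tetraspanin, was at 3373, 3038, 3022 and 2489 CPM in cortex and 917, 849.7, 727 and 813 CPM in MGv (log2 fold change -1.85 ± 0.14, adjusted p = 7.4e-06). Both pairs of groups were apart. Cst3, the protease inhibitor cystatin C, was at 8249.8, 6640.3, 8152 and 3856 CPM in cortex and 2087, 4125, 1915 and 1865 CPM in MGv (log2 fold change -1.43 ± 0.29, adjusted p = 0.0079), the groups overlapping through cortex d and MGv b. Gpm6a, a membrane glycoprotein of neurites, was at 2635 to 3758 and 872 to 1990.1 CPM (log2 fold change -1.03 ± 0.23, adjusted p = 0.014). Neither Cst3 nor Gpm6a was called within the shared series (adjusted p = 0.11 and 0.18).

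To place MGv among thalamic nuclei, it was tested against the mean of dLG and VPM over the 13 thalamic libraries, which share the MGv libraries with the comparison above. By this test 403 of 17319 genes were called (2.33%), and levels here are CPM scaled over all 17 libraries. Of the 9 dLG and VPM libraries 5 lay outside the library number series of MGv. In the 8 thalamic libraries of that series 417 of 18168 genes were called, 252 of them also over the 13 libraries and in the same direction; of the genes below called over the 13 libraries, Gfap alone was not called there. Crabp2 was particular to MGv among the nuclei by this test, at 7.98 to 30.7 CPM in MGv, 0 to 0.398 CPM in dLG and 0.143 to 0.641 CPM in VPM (log2 fold change against the other nuclei 6.38 ± 0.58, adjusted p = 6.4e-05). Gbx2 was at 7.31 to 30.1 CPM in MGv, 0 to 2.72 CPM in dLG and 0.651 to 1.63 CPM in VPM (3.99 ± 0.63, adjusted p = 0.0039). Cortex levels of both genes were at or below 0.348 CPM. Otx2, on the other hand, was at 63.9 to 104 CPM in dLG and 35.6 to 56.9 CPM in VPM and was not called between nuclei (0.35 ± 0.15, adjusted p = 0.33), nor were Agt (0.34 ± 0.19, adjusted p = 0.48) and C1ql2 (0.21 ± 0.13, adjusted p = 0.52).

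Connexin 30 and Kir4.1 were lower in MGv than in the other nuclei as well. Gjb6 was at 25.2 to 36.5 CPM in MGv, 63.4 to 84.9 CPM in dLG and 123 to 192 CPM in VPM (-1.89 ± 0.15, adjusted p = 2.6e-05), and VPM overlapped the cortical range. Kcnj10 was at 298 to 628 CPM in dLG and 403 to 571 CPM in VPM (-0.89 ± 0.18, adjusted p = 0.025). For Slc1a3, dLG and VPM held 1176 to 1649.9 and 1346 to 1848 CPM, and MGv was not called against them (0.14 ± 0.12, adjusted p = 0.7). Ildr2 (0.94 ± 0.12, adjusted p = 0.00057), Irx5 (1.10 ± 0.15, adjusted p = 0.0019), Il33 (0.86 ± 0.17, adjusted p = 0.017), Wls (0.71 ± 0.14, adjusted p = 0.019) and Robo1 (0.78 ± 0.15, adjusted p = 0.015) were higher in MGv against the mean of the nuclei too. For Il33 the difference lay with dLG alone, at 30.0 to 53.3 CPM. VPM, at 95.2 to 135 CPM, overlapped MGv, at 89.8 to 161 CPM.

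Some genes fell between cortex and the other nuclei. Fgfbp3, higher in cortex than in MGv, was higher in MGv than in the other nuclei (47.3 to 72.6 CPM in dLG, 20.4 to 24.2 CPM in VPM; 1.35 ± 0.21, adjusted p = 0.0037), and so was Sfrp1 (0.91 ± 0.19, adjusted p = 0.023). Bmp4 was lower in MGv in both (-1.65 ± 0.29, adjusted p = 0.008). The immediate early genes Junb (1.60 ± 0.26, adjusted p = 0.0046), Ier2 (1.08 ± 0.19, adjusted p = 0.0078) and Zfp36 (1.81 ± 0.32, adjusted p = 0.0095) were higher in MGv than in the other nuclei. Fos was at 1285 to 1882 CPM in dLG and 213 to 1414 CPM in VPM (1.22 ± 0.31, adjusted p = 0.068).

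**Figure D5:**
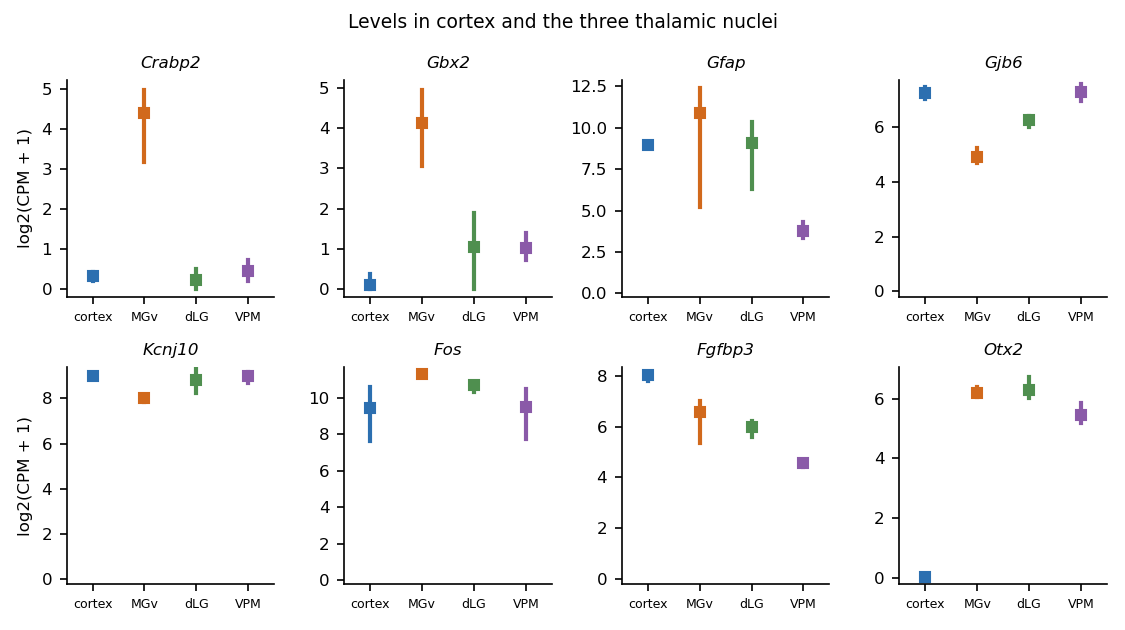
Mean (square) and lowest to highest library (bar) of 8 genes as log2(CPM + 1), scaled over all 17 libraries, in cortex (4 libraries), MGv (4), dLG (5) and VPM (4). Crabp2 and Gbx2 stand apart in MGv, Gjb6 and Kcnj10 are lowest in MGv, Gfap spans the widest range within MGv, and Otx2 is near 0 in cortex alone.

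Gfap, the intermediate filament gene whose promoter drives the reporter, varied widely within MGv. It was at 449, 463, 539.7 and 528 CPM in cortex a to d and 36.5, 606, 5561 and 1292 CPM in MGv a to d, and the difference did not pass the test (log2 fold change 1.92 ± 1.01, adjusted p = 0.24). Without MGv a it did (log2 fold change 2.33, adjusted p = 0.022), and without MGv c the log2 fold change was 0.38 (adjusted p = 0.79). MGv a was the lowest and MGv c the highest, and cortex lay between them. In the other nuclei it was at 78.3 to 1310.0 CPM in dLG and 8.98 to 19.3 CPM in VPM (4.55 ± 0.87, adjusted p = 0.014 for MGv against these, and 0.21 in the shared series). Aqp4 too was lowest in MGv a and highest in MGv c, at 883, 1807, 3069 and 1678 CPM in MGv a to d.

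Markers of other cell types moved with the groups in places. Microglial markers gave 4 calls of 7 in MGv (background 10.9%), but 1 call was left within the shared series. C1qb was at 0.53 to 1.38 CPM in cortex and 3.97 to 5.16 CPM in MGv (log2 fold change 2.29 ± 0.38, adjusted p = 0.0022). Mural cell genes gave 2 calls of 5 in cortex (background 9.98%). These were Pdgfrb, at 25.7 to 51.9 and 1.36 to 7.16 CPM (log2 fold change -3.43 ± 0.45, adjusted p = 0.00042), and Rgs5 (log2 fold change -3.02 ± 0.41, adjusted p = 0.00059). Ependymal markers were at 3.47 to 101 CPM summed in cortex, highest in cortex d, and 3.36 to 8.57 CPM in MGv, with Foxj1 and Rsph1 called higher in cortex (-2.16 ± 0.66 and -2.86 ± 0.78), calls that were lost without cortex d. Of 10 oligodendrocyte lineage genes 3 were called higher in cortex (background 9.98%), and none within the shared series. The 3 included Mog and Cnp (-2.42 ± 0.81 and -0.42 ± 0.15). The neurofilament genes Nefl and Nefm, whose annotated exons overlap on opposite strands, were higher in MGv (1.15 ± 0.40 and 1.11 ± 0.34), with Nefm at 59.00, 17.5, 20.7 and 44.01 CPM in MGv a to d and neither called within the shared series (adjusted p = 0.41 and 0.36). Of endothelial genes Kdr was called higher in MGv (log2 fold change 2.97 ± 0.99, adjusted p = 0.069; 0.31 within the shared series). Of inhibitory neuron genes Gad2 was called higher in cortex (log2 fold change -2.05 ± 0.75, adjusted p = 0.09; 0.34 within the shared series). Cldn5 and Pecam1, fibroblast Col1a1 and Col1a2, and choroid plexus Clic6 and Folr1 were not called. The part of these cells in the differences above was not tested.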

How the data were processed

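RNA was measured in 17 sorted astrocyte libraries (SMARTer Ultra Low v4 cDNA, NEBNext Ultra libraries, single reads of 50 bases). Per the labels and the study's methods, the authors aligned reads to mm10 with STAR 2.7.0d and deposited raw counts per gene from featureCounts (Subread 1.6.4, Ensembl 95); whether the counting used strand is not given in the sources used here. From these counts, genes passing filterByExpr in the 8 cortex and MGv libraries were tested with edgeR 4.0.16 (R 4.3.3): TMM factors, quasi-likelihood test, 2 groups without covariates, Benjamini-Hochberg adjusted p below 0.1. Totals ran from 18785731 to 50366363 counts, and intervals and floors (3 counts) cover counting error only. No 2 libraries were copies of one another. Libraries were treated as separate pools, and p-values measure the spread between libraries of a group. In cortex that spread includes any difference between the 2 library number series. Nuclei were compared in a second fit over 13 thalamic libraries.

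Named genes were, in each direction, the 8 of lowest p among called genes over 1 in log2 fold change, not overlapping, at a mean of 5 CPM or more; the 4 of highest mean CPM among called genes over 1 in log2 fold change; up to 3 called members of lowest p per list; and 13 genes named in the study's text. Some genes these rules select are not reported here. Further list members were named after their values were seen. The 17 gene lists, the marker lists and the members were chosen with earlier results of these data known. Positions come from GENCODE M21 (GRCm38), matched for 26548 of 26556 genes, and promoters from RefSeq. On simulated counts with 200 changed genes for this comparison, edgeR recovered 59.1% of changes of 1 and 86.0% of changes of 2 in log2 among 15920 genes, with 11.7% false calls among 163. Alternatives were DESeq2 1.42.0, its size factors, other filters, a threshold of 0.05, a replicate block, the library number series as covariate or alone, all 17 libraries, and each library left out in turn.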

Additional observations from a re-analysis of the deposited data

Results flagged for a closer look

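In 14 of the 187 groups of 4 libraries examined for the named genes, 1 library stood apart from the other 3 by Dixon's criterion, which chance meets in about 1 group in 20. MGv b accounted for 7 of them. It was high for Foxb1 (67.2 CPM against 45.7 to 47.8 in the other MGv libraries), Hes5 (1629 CPM against 724 to 784), Cst3 (4125 CPM against 1865 to 2087), Gabbr2 (303 CPM against 194 to 209.6), Sfrp1 (50.6 CPM against 34.3 to 35.5), Cdon (2.72 CPM against 1.31 to 1.39) and Robo1 (142 CPM against 123 to 125). MGv c was high for Ednrb (2034 CPM against 1293 to 1324).

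Among cortex libraries, cortex c was low for Chrdl1 (189.6 CPM against 229 to 232) and high for Notch1 (75.9 CPM against 47.4 to 50.9), cortex d was high for Adra2a (27.8 CPM against 18.4 to 19.9), and cortex b was high for Cenpf (78.8 CPM against 52.9 to 54.6). Cortex a was high for Ier2 (232 CPM against 74.8 to 91.6) and was the only cortex library with reads of Gbx2 (0.280 CPM). Of these genes, Cdon and Cenpf lost their calls when other single libraries were left out, and Notch1 without cortex b. The cause of these deviations was not tested.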

How the results depend on the processing

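The counts of genes higher in MGv and in cortex were 642 and 720 with the number series of the libraries as covariate, 448 and 606 within the shared series, 1116 and 1014 at an adjusted p below 0.05, and 1085 to 1867 and 851 to 1747 when 1 library was left out, with both lowest values without cortex b. They were 2592 and 1917 by DESeq2 and 1405 and 1341 over all 17 libraries. In the simulation DESeq2 made 33.6% false calls among 238, where 198 of the 15995 genes it tested had been changed. The share of false calls depends on how many genes are changed, so it does not carry over to the 2592 and 1917 calls. Thalamic factors higher in MGv fell to 6, and cortical factors higher in cortex to 7, with at least 10 counts required in every library, since fewer genes were then tested. Guidance genes higher in MGv numbered 7 with the covariate and 5 within the shared series; cholesterol genes higher in cortex numbered 5 and 3, and 7 to 12 with 1 library left out. For the series the cause was not tested: it is partly confounded with the groups, and 2 cortex libraries remain.

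Letters a to d are shared by both groups, and deviations of same-letter libraries correlated at 0.11, -0.05, -0.04 and 0.24. Cortex a and d correlated best with the MGv library of the same letter, cortex b with MGv a (0.05) and cortex c with MGv b (0.28). With 4 libraries a group these values cannot settle whether the letters pair the libraries. With the letter as a replicate block, 1559 genes were higher in MGv and 1460 in cortex. Of 98 named genes, 63 kept direction and call under all 17 alternatives, 32 changed call and 3, none of them called, changed sign: Aqp4 without MGv c (-0.10; -0.10 to 0.49 with 1 library left out), Aldh1l1 with the replicate block (-0.0081) and without MGv c (-0.20; -0.20 to 0.17), and Lef1 without MGv a (-0.23; -0.23 to 0.83). Restricting the comparison of nuclei to 1 library number series, chosen after seeing the data, gave 417 calls against 403. Depth limits genes below about 0.157 CPM, where 3 reads or fewer are expected.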

Other observations

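The genes below were chosen after their values were seen. Slco1c1, a thyroxine transporter, was at 845 to 903 CPM in cortex and 128 to 200.3 CPM in MGv (log2 fold change -2.53 ± 0.17, adjusted p = 2e-06 by edgeR), and Crym, a thyroid hormone binding protein, at 3.77, 8.28, 21.5 and 11.5 CPM in cortex and 0.195, 0.209, 0.383 and 0.362 CPM in MGv (log2 fold change -5.25 ± 0.57, adjusted p = 0.00011 by edgeR). Ezr, which links membrane to actin in fine astrocyte processes, was at 390.2 to 489 CPM in cortex and 92.1 to 137 CPM in MGv (log2 fold change -2.11 ± 0.16, adjusted p = 7.1e-06 by edgeR). No library of one region reached the range of the other for these genes.

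Nts, neurotensin, was at 0, 0.246, 0 and 0 CPM in cortex and 10.4, 8.77, 6.74 and 37.99 CPM in MGv (log2 fold change 8.21 ± 0.96, adjusted p = 0.0002 by edgeR), and no library of dLG or VPM exceeded 0.498 CPM. Vgf, a secreted neuropeptide precursor, was at 1.94 to 4.58 CPM in cortex and 234, 58.3, 35.9 and 149 CPM in MGv a to d (log2 fold change 5.13 ± 0.57, adjusted p = 0.00014 by edgeR), and Slc6a4, the serotonin transporter, at 0.0986 to 1.49 CPM in cortex and 109, 12.95, 12.1 and 42.7 CPM in MGv a to d (log2 fold change 6.27 ± 0.86, adjusted p = 0.00063 by edgeR). Vgf and Slc6a4 were highest in MGv a and d, the libraries with the highest summed neuronal markers. Tph2, an enzyme of serotonin synthesis, had 6.07, 3.30, 2.29 and 3.28 CPM in cortex and no read in MGv, at least 25.7-fold higher in cortex.

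Prm1, a protamine of sperm chromatin, was at 1318, 684, 893 and 540.4 CPM in cortex and 1605, 1973, 1940.5 and 1182 CPM in MGv (log2 fold change 0.96 ± 0.26, adjusted p = 0.028 by edgeR), with cortex a inside the MGv range. Prm1 was also at 1349 to 1756 CPM in dLG and 931 to 1808 CPM in VPM, scaled over all 17 libraries. Where its reads came from was not tested. Among annotation classes, 82 of 654 genes annotated as to be experimentally determined were called higher in MGv and 4 higher in cortex, against 1572 and 1550 of 13730 protein-coding genes. Cortex b had no read of the Y-linked genes Ddx3y and Uty, which the other 7 libraries expressed, with Ddx3y at 59.2, 0, 25.7 and 62.02 CPM in cortex a to d and 12.95 to 45.5 CPM in MGv.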
